A study of Mus musculus with 4 samples.

Results

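The genes described here are 10 genes linked to feedback on the ERK pathway. They are the dual-specificity phosphatases Dusp1, Dusp2, Dusp4, Dusp5 and Dusp6, the Sprouty genes Spry1 and Spry2, the Sprouty-related genes Spred1 and Spred2, and Phlda1. Phlda1 is included as a target of ERK signaling, and no inhibition of the cascade by it is claimed. They were taken by symbol from a table of 17655 mouse genes with 1 FPKM value per library (fragments per kilobase of transcript, scaled to the fragments of the library, so that levels of different genes can be compared per length). All 10 were found in the table, and 9 of them reached an FPKM of 1 in some library, as did 11183 genes of the table. The tenth, Spry1, did not. The set was chosen by pathway and by its FPKM ratios in these same libraries, so the values below describe the libraries and are not independent support for any pattern.

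RNA-seq was done on RAW264.7, a macrophage line from the mouse, in 4 libraries whose cells were all permeabilized with digitonin and cultured for 24 h. In the ManGn library the cells received 10 µM of the disaccharide Manβ1-4GlcNAc in water, and in the fOS library they received 10 µM of the free oligosaccharide (fOS) pool isolated from Trex1-/- mouse embryonic fibroblasts. The mock library received the water of a mock fOS extraction and the water library received ultrapure water. The pool holds several glycans while ManGn is a single one, the responding cells are 1 cell line, and no library without digitonin was analysed here. Each condition has 1 library, so no difference has a replicate check, and no p-value, SD or standard error is given. In bulk RNA, fewer cells expressing a gene and less RNA of that gene per cell cannot be told apart.

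ERK is the last kinase of the RAS-RAF-MEK-ERK cascade, which growth factor receptors and, in macrophages, the CSF1 receptor and Toll-like receptors switch on. Active ERK induces early genes such as those of the FOS and EGR families, and among its targets are genes whose products switch the cascade off again. Dual-specificity phosphatases remove the phosphates from the activation loop of the kinase itself, whereas Sprouty and SPRED proteins act upstream, at the level of RAS and RAF. Among these phosphatases, Dusp1 is known for limiting the output of inflammatory signaling in macrophages.

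The libraries were close in depth, and the cells carried macrophage markers in all of them. Depth was estimated at 9898000 to 10544000 reads from the steps that single reads leave in low values, and at the best estimate 58.9% to 63.6% of 397 to 423 such values per library lay within 0.1 of a whole number. The summed FPKM of 12 macrophage markers was 8422 to 9379, led by Lyz2, the macrophage lysozyme. Lyz2 alone was at 6202 to 7250, so the sum says little about the other markers. Itgam was at least 2-fold lower with each ligand than with each control. Its FPKM was 49.82 with ManGn and 44.44 with fOS, against 135.86 with mock and 103.45 with water. Mertk reached at most 0.83 and was not tested. Of the 11 macrophage markers tested, 1 was at least 2-fold higher and 1 lower with ManGn than water, beside 9.44% and 7.37% of all genes. With ManGn over mock the counts were 0 and 2, beside 3.51% and 3.47%. With fOS over mock they were 0 and 2, beside 2.67% and 6.41%. For fOS over water they were 2 and 1, beside 14.1% and 14.3%. For mock over water they were 4 and 0, beside 9.24% and 6.69%. The part of these differences in the results below was not tested. The summed FPKM of 8 fibroblast markers was 0.04 to 0.29, with Pdgfra, Dcn, Lum and Thy1 listed at 0. Summed FPKM reached at most 0.07 for B cell, 1.46 for T cell and 0.27 for endothelial markers, and 3 epithelial markers were listed at 0. The controls were not interchangeable, since mock over water was at least 2-fold higher for 9.24% and at least 2-fold lower for 6.69% of the 11183 genes. Each ligand was therefore compared with both controls, and these comparisons share control libraries.

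Dusp5 was the member furthest above the controls, and the only one of the 9 that was at least 2-fold higher with each ligand over each control, which 0.554% of the 11183 genes were. Dusp5 (Entrez Gene 240672) encodes a nuclear phosphatase specific for ERK1 and ERK2. Its FPKM was 3.11 with ManGn and 4.1 with fOS, against 0.35 with mock and 0.7 with water. Both ligand libraries stood above both controls, and the level with mock was the lowest of the 4. On the log2 scale of FPKM plus 0.1, which is used for every ratio and understates the change of low genes, Dusp5 was 2.00 higher with ManGn than with water and 2.83 higher with ManGn than with mock. With fOS it was 3.22 higher than with mock and 2.39 higher than with water. Among all genes tested, 1.86% had a higher ratio of ManGn over water and 0.572% a higher ratio of fOS over mock.

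**Figure D1:**
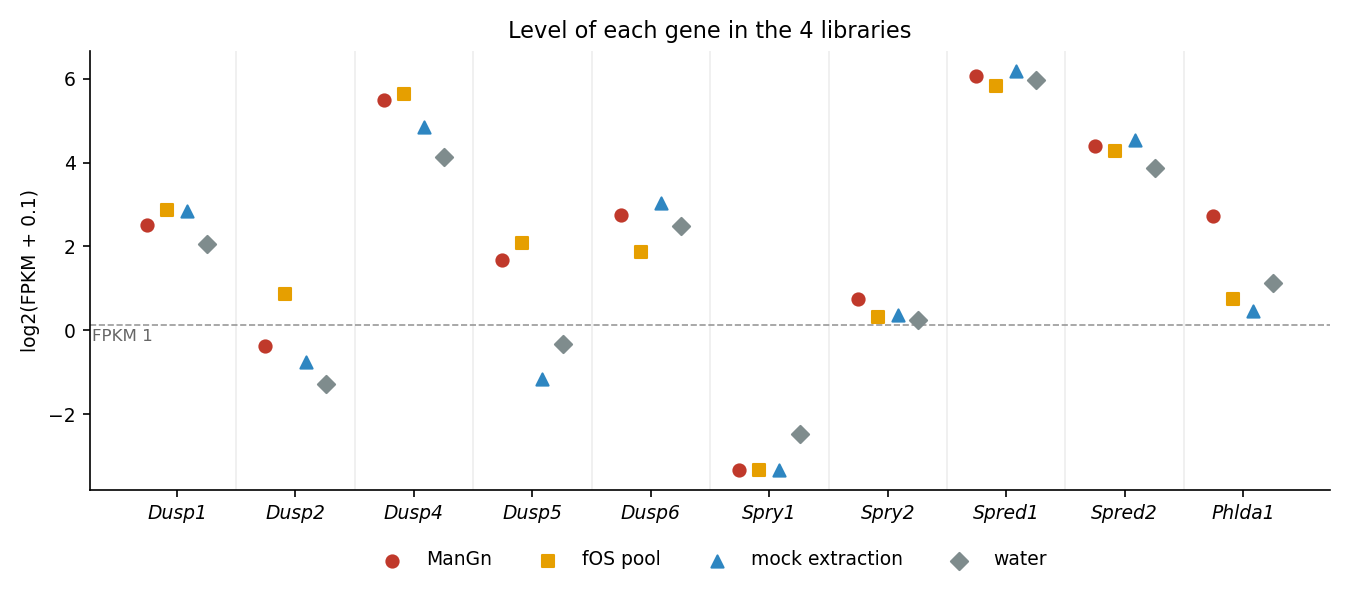
FPKM of the 10 genes in the 4 libraries, as log2(FPKM + 0.1) on the vertical axis, with 1 point per library and therefore no error bars; the dashed line marks FPKM of 1. Dusp5 lies above that line with ManGn and fOS and below it with mock and water, Phlda1 stands apart with ManGn only, and Spred1 is the highest gene in all 4 libraries.

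These levels rest on few reads in the controls. For Dusp5 an estimated 77 reads with ManGn and 107 with fOS stand against 9 with mock and 17 with water. The ratio of reads, scaled by depth, was 4.47 for ManGn over water (95% exact interval 2.62 to 8.06) and 11.2 for fOS over mock (5.69 to 25.2). It was 8.48 for ManGn over mock (4.24 to 19.2) and 5.91 for fOS over water (3.52 to 10.5). All 4 intervals lie above 2. Those of mock over water, at 0.527 (0.207 to 1.25), and of ManGn over fOS, at 0.756 (0.556 to 1.02), include 1, so neither the controls nor the ligands could be told apart for Dusp5 at this depth. These intervals, here and below, cover counting error only and leave out variation between cultures.

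The stretch before the Dusp5 start site is shown because Dusp5 was higher with both ligands, and those of Dusp1 and Dusp2 are shown beside it as the windows of other members that encode nuclear phosphatases. The windows are the 250 bases upstream of each start site in RefSeq on GRCm38.p6, read 5′ to 3′ on the strand of the gene, and 8 of the 10 members have one. Capitals mark matches to the motifs searched. The Dusp5 window is chr19:53528895-53529144 on the plus strand, that of Dusp1 is chr17:26508473-26508722 on the minus strand, and that of Dusp2 is chr2:127335909-127336158 on the plus strand.
Dusp5: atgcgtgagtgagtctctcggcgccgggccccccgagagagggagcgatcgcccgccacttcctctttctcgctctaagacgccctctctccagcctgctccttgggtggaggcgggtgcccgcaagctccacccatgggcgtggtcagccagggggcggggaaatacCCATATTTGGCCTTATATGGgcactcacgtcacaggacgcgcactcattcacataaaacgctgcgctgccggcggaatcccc
Dusp1: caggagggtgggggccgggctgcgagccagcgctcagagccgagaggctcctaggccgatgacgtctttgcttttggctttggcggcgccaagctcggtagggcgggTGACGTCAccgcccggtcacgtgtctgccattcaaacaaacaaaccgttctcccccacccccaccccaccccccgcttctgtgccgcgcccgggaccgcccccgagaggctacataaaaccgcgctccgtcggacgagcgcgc
Dusp2: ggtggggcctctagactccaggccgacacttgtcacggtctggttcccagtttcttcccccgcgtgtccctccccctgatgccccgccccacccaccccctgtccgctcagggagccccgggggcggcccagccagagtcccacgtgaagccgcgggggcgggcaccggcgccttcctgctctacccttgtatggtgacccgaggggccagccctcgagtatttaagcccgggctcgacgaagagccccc

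Both strands of the windows were searched for the CArG box, which is the core of the serum response element that serum response factor binds, for the cAMP response element TGACGTCA, for the AP-1 heptamer TGANTCA and for the ETS motif CCGGAAGT. In the Dusp5 window, 2 CArG boxes follow each other without a gap, CCATATTTGG at 82 to 73 bases and CCTTATATGG at 72 to 63 bases before the start site. Of 32851 windows of the same length, 1.47% hold a CArG box and 6 hold 2 or more. The Dusp1 window holds a cAMP response element at 143 to 136 bases before the start site, as 1.55% of all windows do, and the Dusp2 window holds none of the 4 motifs. No other member's window holds any of them either, while AP-1 and ETS motifs occur in 6.75% and 2.88% of all windows. Dusp4 and Phlda1 have no window and were not searched. A match describes the letters of the window, and binding was not measured.

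Phlda1 was higher with ManGn alone. Phlda1 (Entrez Gene 21664) encodes a pleckstrin homology-like domain protein and is a known transcriptional target of ERK signaling. Its FPKM was 6.55 with ManGn and 1.58 with fOS, against 1.27 with mock and 2.09 with water. The ManGn library stood above the other three, and the fOS library lay between the controls. The log2 ratio of Phlda1 was 1.60 for ManGn over water and 2.28 for ManGn over mock, and 0.948% of the genes tested had a higher ratio of ManGn over mock. For fOS it was 0.29 over mock and -0.38 over water.

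By reads, Phlda1 was 3.15-fold higher with ManGn than with water (95% exact interval 2.20 to 4.62) and 5.08-fold higher than with mock (3.29 to 8.13), from an estimated 128 reads with ManGn, 25 with mock and 40 with water. The ratio of fOS over mock was 1.21 (0.694 to 2.13) and that of fOS over water 0.751 (0.457 to 1.23). Set directly against fOS, ManGn was 4.20-fold higher for Phlda1 (2.83 to 6.40), and 1.81% of the genes tested had a higher ratio of ManGn over fOS. Dusp5 and Phlda1 were thus the members at least 2-fold higher with ManGn over each control, where 1.8% of all genes tested were.

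Dusp2 was higher with fOS, at a low level. Dusp2 (Entrez Gene 13537), also called PAC-1, encodes a nuclear phosphatase known from activated immune cells. Its FPKM was 0.67 with ManGn and 1.73 with fOS, against 0.49 with mock and 0.31 with water. Only the fOS library passed FPKM of 1. Dusp2 was 1.63 higher on the log2 scale with fOS than with mock and 2.16 higher than with water. The log2 ratios of Dusp2 for ManGn were 0.91 over water and 0.38 over mock, below the 2-fold threshold.

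The reads behind Dusp2 were an estimated 11 with ManGn and 29 with fOS, against 8 with mock and 5 with water. The ratio of fOS over mock was 3.42 (95% exact interval 1.53 to 8.66) and that of fOS over water 5.44 (2.08 to 18.0). For ManGn over water the interval of 0.695 to 7.96 around a ratio of 2.17 includes both 1 and values well above 2, so a difference of that size was not detectable. ManGn over fOS was 0.398 (0.18 to 0.821). Dusp2 and Dusp5 were the members at least 2-fold higher with fOS over each control, where 1.9% of all genes tested were. With a pseudocount of 1 in place of 0.1, the log2 ratio of Dusp2 for fOS over mock was 0.87 and the 2-fold call was lost.

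Dusp4 was the most abundant phosphatase of the set, and its ratio depended on the control. Dusp4 (Entrez Gene 319520) encodes another nuclear phosphatase, which acts on ERK and also on JNK and p38. Its FPKM was 44.81 with ManGn and 49.11 with fOS, against 28.86 with mock and 17.54 with water. The ligand libraries stood above both controls, and mock lay between them and water. The log2 ratio of Dusp4 was 1.35 with ManGn and 1.48 with fOS when each was set against water, both past 2-fold. Over mock it was 0.63 for ManGn and 0.76 for fOS, and mock itself was 0.72 over water. The reads are many, at an estimated 1233 with ManGn, 1419 with fOS, 787 with mock and 476 with water. The ratio of ManGn over mock, 1.55 (95% exact interval 1.42 to 1.70), that of fOS over mock, 1.70 (1.56 to 1.86), and that of mock over water, 1.64 (1.47 to 1.85), all exclude 1 by counting error and lie under 2.

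**Figure D2:**
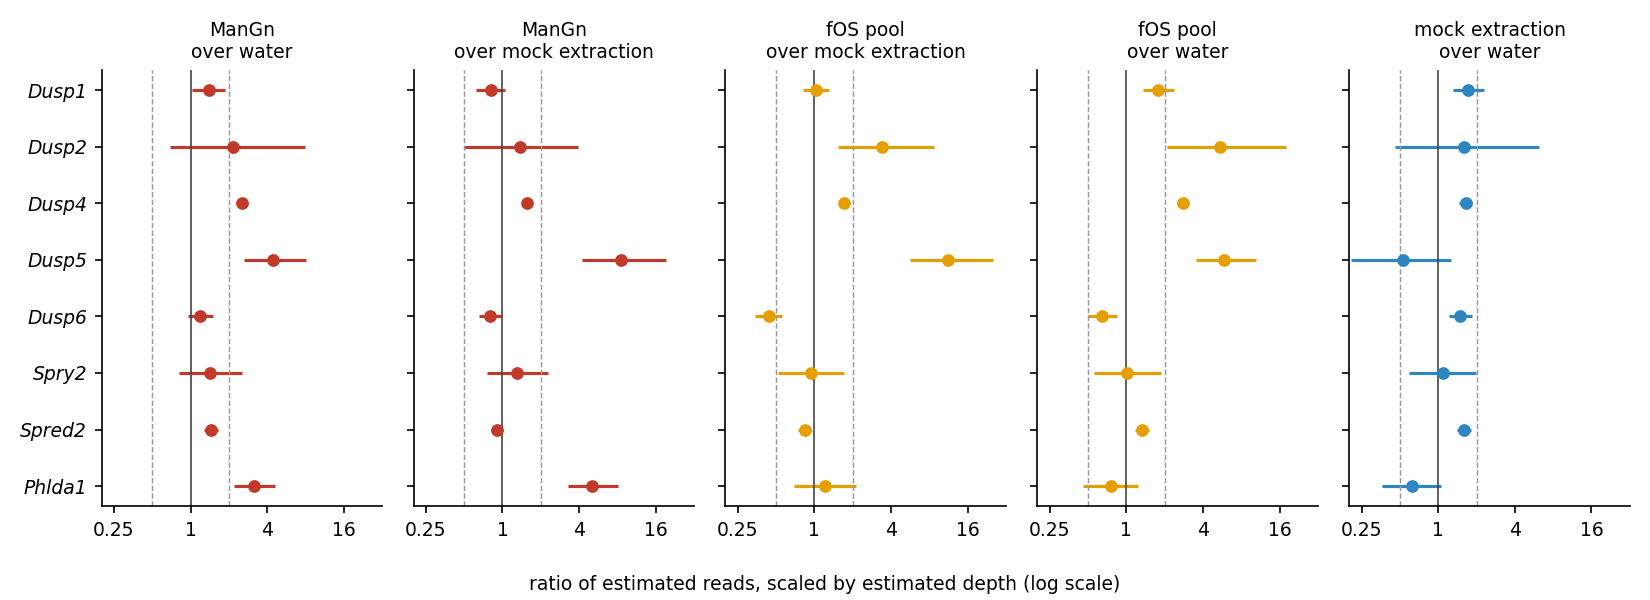
Ratio of estimated reads, scaled by estimated depth, for the 8 members with a transcript length that reached FPKM of 1 (log axis), in 5 comparisons; points are ratios, bars are 95% exact intervals for counting error only, the solid line is a ratio of 1 and the dashed lines are 2-fold. The bars of Dusp5 lie above 2 in all 4 ligand comparisons, and those of Phlda1 lie above 2 for ManGn only. The bar of Dusp6 lies below 1 for fOS over each control and for ManGn over mock.

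Dusp1 did not pass 2-fold in any comparison. Dusp1 (Entrez Gene 19252), also known as MKP-1, encodes a phosphatase of p38 and JNK as well as ERK and is an early response gene of stimulated macrophages. Its FPKM was 5.64 with ManGn and 7.23 with fOS, against 7.03 with mock and 4.08 with water. Water was the lowest and the ManGn library lay between the controls. The log2 ratio of Dusp1 was 0.46 for ManGn over water and -0.31 for ManGn over mock, and for fOS it was 0.04 over mock and 0.81 over water. The ratio of reads for fOS over mock was 1.03 (95% exact interval 0.815 to 1.31), while mock over water was 1.73 (1.30 to 2.30).

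Dusp6 was the only member lower than a control by 2-fold. Dusp6 (Entrez Gene 67603), or MKP-3, encodes the cytoplasmic phosphatase specific for ERK, and its transcript is widely used as a readout of ERK activity. Its FPKM was 6.57 with ManGn and 3.57 with fOS, against 8.15 with mock and 5.49 with water. The fOS library was the lowest of the 4 and the mock library the highest, and ManGn lay between the controls. For fOS the log2 ratio of Dusp6 was -1.17 over mock and -0.61 over water, and 5.48% of the genes tested had a lower ratio of fOS over mock. By reads the ratio was 0.437 over mock (95% exact interval 0.343 to 0.553) and 0.648 over water (0.501 to 0.837), so fOS was below both controls by counting error while only the first passed 2-fold. ManGn over fOS was 1.84 for Dusp6 (1.44 to 2.36). For ManGn over water the log2 ratio of Dusp6 was 0.25.

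By FPKM, the fOS library was the highest of the 4 for the nuclear ERK phosphatase Dusp5 and the lowest for the cytoplasmic one Dusp6. By reads the ligand libraries could not be told apart for Dusp5, and Dusp6 with fOS was 0.648 of water, short of 2-fold. Summed over the 5 phosphatases, FPKM was 60.8 with ManGn and 65.74 with fOS, against 44.88 with mock and 28.12 with water. Most of each sum is Dusp4.

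Spry2, Spred1 and Spred2, the Sprouty and SPRED members that could be tested, did not reach 2-fold in any comparison. Spred1 and Spred2 encode membrane-associated proteins with an EVH1 domain that bring the RAS GTPase activator neurofibromin to the membrane. Spred1 (Entrez Gene 114715) was the most abundant of the 10 genes on the FPKM scale, at 66.32 with ManGn and 56.95 with fOS, against 72.81 with mock and 62.22 with water. Its log2 ratios for the ligands lay between -0.35 for fOS over mock and 0.092 for ManGn over water. Spred2 (Entrez Gene 114716) was at 20.93 with ManGn and 19.28 with fOS, against 23.05 with mock and 14.51 with water. Both ligand libraries lay between the controls, and the log2 ratio of Spred2 was 0.53 for ManGn over water, -0.14 for ManGn over mock and 0.66 for mock over water.

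Spry2 (Entrez Gene 24064), the widely expressed Sprouty, was near the floor of the test, with FPKM of 1.59 with ManGn and 1.15 with fOS, against 1.18 with mock and 1.09 with water. ManGn was the highest, by 0.51 over water and 0.40 over mock on the log2 scale, and by reads the ratio of Spry2 for ManGn over water was 1.41 (95% exact interval 0.806 to 2.52). A ratio of 1 and a ratio of 2 are both inside that interval. Spry1 (Entrez Gene 24063) was listed at 0 with ManGn, fOS and mock and at 0.08 with water, about 2 reads. At this depth 3 reads of Spry1 would give FPKM of 0.115 to 0.122, so no fold is given. The related Spry3, Spry4 and Phlda2 were listed at 0 in all 4 libraries. Spred3, not a member and named after its values were seen, did pass 2-fold in some comparisons. Its FPKM was 2.16 with ManGn and 0.23 with fOS, against 0.89 with mock and 3.13 with water. The log2 ratio of Spred3 was 1.19 for ManGn over mock but -0.52 for ManGn over water. It was -3.29 for fOS over water and -1.71 for mock over water. Summed over the 4 Sprouty and SPRED members, FPKM was 88.84 with ManGn and 77.38 with fOS, against 97.04 with mock and 77.9 with water.

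Taking the 9 members tested as a set, 3 were at least 2-fold higher with ManGn than with water (Dusp4, Dusp5 and Phlda1) and 0 were lower, where 9.44% of all genes tested were higher and 7.37% lower. All 9 had a log2 ratio above 0 there, with a median of 0.53, against a median of 0.05 over all genes tested. With mock as the control of ManGn, 2 were higher (Dusp5 and Phlda1) and 0 lower, beside 3.51% and 3.47% of all genes, and the median of the members was 0.38 with 4 of the 9 below 0. That median was -0.14 over the 6 members that reached an FPKM of 5. With fOS over mock, 2 were higher (Dusp2 and Dusp5) and 1 lower (Dusp6), beside 2.67% and 6.41% of all genes, and the median of the members was 0.04, a value that turned below 0 under other settings. With fOS over water, 3 were higher (Dusp2, Dusp4 and Dusp5) and 0 lower, beside 14.1% and 14.3%, with a median of 0.41.

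Between the controls, mock over water, 0 of the 9 members passed 2-fold, beside 9.24% higher and 6.69% lower among all genes, so that a count of 0 of 9 is no result about the members, and the log2 ratios ran between -0.83 for Dusp5 and 0.77 for Dusp1 with a median of 0.53, against 0.074 over all genes tested. The median of the members between the controls was thus as large as that of ManGn over water, and 7 of the 9 were higher with mock than with water. Only Dusp5 and Phlda1 had a lower level with mock. The part that the extraction played in the ratios over water was not tested.

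**Figure D3:**
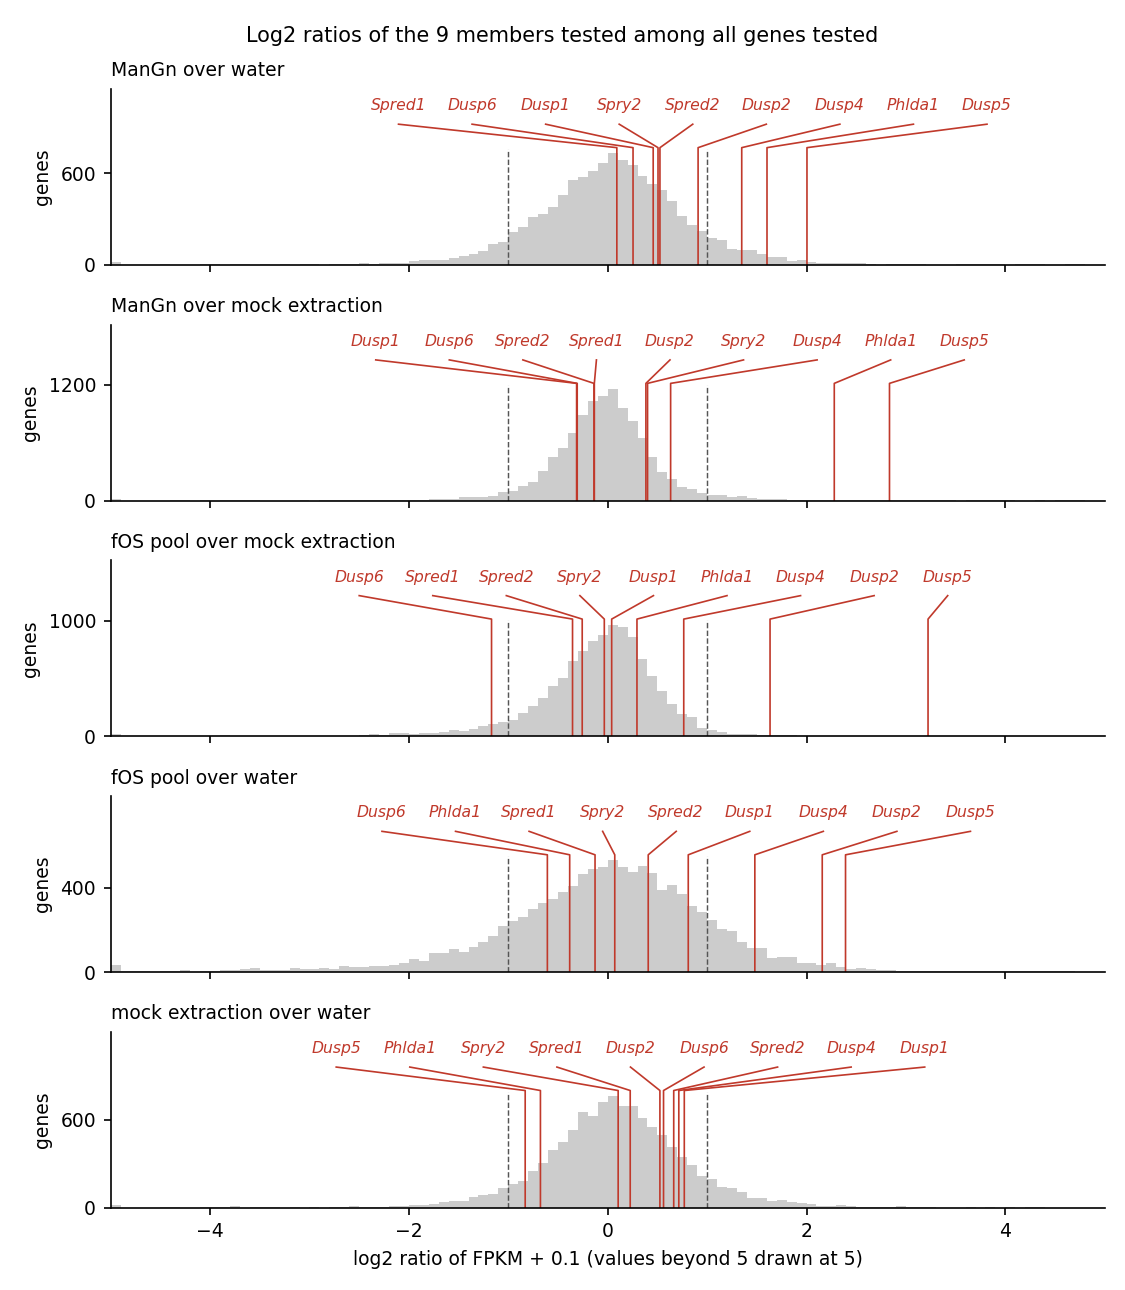
Log2 ratios of FPKM + 0.1 of the 9 members tested (labelled lines) over the histogram of all 11183 genes tested, in 5 comparisons; the vertical axis is the number of genes per bin and the dashed lines mark 2-fold. Dusp5 lies at the right edge of the histogram in each ligand comparison, whereas most members lie within the bulk, and between the controls 7 of the 9 lie to the right of 0.

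Some other genes that ERK induces were also above the controls, more of them with ManGn than with fOS. Their list was chosen with earlier results of these data known, so its counts are not independent support for any pattern. Of 36 such genes tested, 16 passed 2-fold upward and 3 downward with ManGn over water, beside 9.44% and 7.37% of all genes, with a median log2 ratio of 0.91. With ManGn over mock 16 were higher and 1 lower, beside 3.51% and 3.47%, with a median of 0.87. With fOS over mock 5 were higher and 3 lower, beside 2.67% and 6.41%, and with fOS over water 10 were higher and 9 lower, beside 14.1% and 14.3%, with medians of -0.027 and 0.14. Over each control, 12 were higher with ManGn, 5 with fOS and 4 with each ligand (Fosl1, Myc, Plk2 and Plk3), beside 1.8%, 1.9% and 0.554% of all genes. Mock over water gave 6 higher and 6 lower, beside 9.24% and 6.69%.

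Fosl1, which encodes the AP-1 subunit FRA-1, was at FPKM of 8.39 with ManGn and 9.73 with fOS, against 1.11 with mock and 1.52 with water. Myc, the growth-promoting transcription factor, was at 4.7 with ManGn and 8.78 with fOS, against 1.12 with mock and 0.79 with water. Both resembled Dusp5 in that both ligand libraries were above both controls. Plk2, a polo-like kinase, was at 31.41 with ManGn and 8.32 with fOS, against 3.53 with mock and 3.99 with water. The immediate early gene Egr1, named after its values were seen, was at 28.99 with ManGn and 12.24 with fOS, against 12.5 with mock and 2.38 with water. In Egr1, as in Dusp4, the mock library was above water.

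Other dual-specificity phosphatases, whose action on ERK was not examined, and other inhibitors of RAS and ERK are given by their counts. Of 12 other dual-specificity phosphatases tested, 1 was higher and 1 lower with ManGn than with water, beside 9.44% and 7.37% of all genes. With ManGn over mock 2 were higher (Dusp14 and Dusp18) and 0 lower, beside 3.51% and 3.47%. With fOS over mock 1 was higher and 1 lower, beside 2.67% and 6.41%. For fOS over water 1 was higher and 3 lower, beside 14.1% and 14.3%. Dusp12 was the one higher with fOS over each control, at FPKM of 6.8 with ManGn and 10.99 with fOS, against 4.82 with mock and 2.77 with water. Of 21 other inhibitors of RAS and ERK, 7 were higher and 1 lower with ManGn than with water, beside 9.44% and 7.37%. But 5 were higher and 2 lower with mock than with water, beside 9.24% and 6.69%. With ManGn over mock 2 of the 21 were higher (Spred3 and Rasal2) and 0 lower, beside 3.51% and 3.47%. Only Rasal2 was higher with ManGn over each control, as 1.8% of all genes were. With fOS over mock 0 of the 21 passed 2-fold, beside 2.67% higher and 6.41% lower among all genes. Rasa1, a RAS GTPase activator, was at FPKM of 28.7 with ManGn and 44.64 with fOS, against 24.58 with mock and 9.32 with water, and the adaptor Dok2 at 67.36 and 51.41 with ManGn and fOS, against 51.67 and 21.87 with mock and water. In both genes the water library was the lowest.

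Genes of the cascade itself are given by the same counts. Of 20 genes of the RAS-RAF-MEK-ERK core, 1 was higher (the ribosomal S6 kinase Rps6ka2) and 1 lower (Rras) with ManGn than with water, beside 9.44% and 7.37% of all genes. With fOS over mock 0 were higher and 2 lower (Rras and Mknk1), beside 2.67% and 6.41%, and with fOS over water 1 was higher and 2 lower, beside 14.1% and 14.3%. Rps6ka2 was at FPKM of 6.7 with ManGn and 1.41 with fOS, against 1.41 with mock and 1.27 with water, and so stood out with ManGn alone as Phlda1 did. Mapk3, which encodes ERK1, was at 128.23 with ManGn and 83.08 with fOS, against 150.05 with mock and 197.47 with water. Of 18 adaptors and receptors upstream of ERK, 0 passed 2-fold with ManGn over either control. The shares of all genes were 9.44% higher and 7.37% lower over water, and 3.51% and 3.47% over mock. With fOS over mock 0 of the 18 were higher and 2 lower, beside 2.67% and 6.41%. With fOS over water 1 was higher and 4 lower, beside 14.1% and 14.3%. Of 21 JNK and p38 kinases, 1 was higher and 1 lower with ManGn over water, beside 9.44% and 7.37% of all genes. With fOS over mock 1 was higher and 1 lower, beside 2.67% and 6.41%. Map2k3, the p38 activator, was the higher one there, at 73.39 with fOS, against 26.67 with mock. With fOS over water 3 of these kinases were higher and 4 lower, beside 14.1% and 14.3%.

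**Figure D4:**
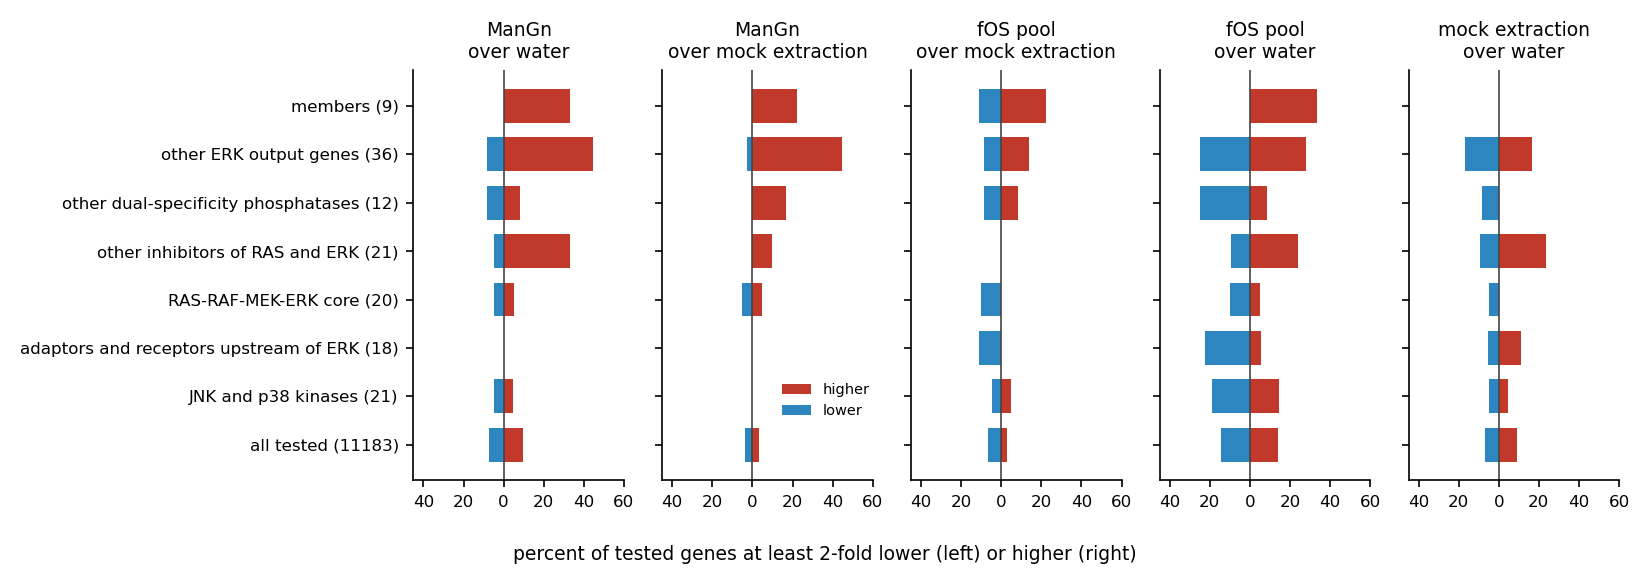
Percent of the tested genes of each list that were at least 2-fold higher (red, to the right of 0) or lower (blue, to the left) in 5 comparisons, with the number tested in brackets and all genes tested in the bottom row. Other ERK output genes have the longest bars to the right for ManGn over each control, and the 9 members have no bar for mock over water.

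The members did not share 1 profile over the 4 libraries. Each gene's values of log2(FPKM + 0.1) were centred on their mean and set against the median profile of the members, and the distances of the members to it ran between 0.286 for Spry2 and 2.46 for Dusp5. Of 8977 other genes that reached an FPKM of 5, 61.8% were no farther from that profile than the median member. The nearest were Anxa11 at a distance of 0.13, Zdhhc20, Med13, Dopey1 and Pex3, so the median profile is a common one. Chosen after the values were seen, the gene nearest to Dusp5 alone was Fosl1, at a distance of 0.328, and it was the only one of the 8977 within 0.5. For Phlda1 the nearest was Rcan1, which encodes an inhibitor of calcineurin, at a distance of 0.311 and with FPKM of 75.64 with ManGn and 19.18 with fOS, against 11.94 with mock and 22.46 with water, and 6 genes were within 0.5. For Dusp6, by contrast, 167 genes were within 0.5, the nearest being Spata6 at 0.131. Distances over 4 libraries that share their controls describe these libraries only.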

How the data were processed

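RNA-seq was measured in 4 libraries of digitonin-permeabilized RAW264.7 cells, 1 per condition, grouped by the sample labels. The authors computed FPKM per gene with RSEM and deposited them for 17655 genes with Entrez Gene IDs. Of the RSEM version, the aligner, the build and the annotation, each is not given in the sources used here. Deposited sheets with the authors' own ratios of ligand to control were left out.

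Each log2 ratio was taken between FPKM values to which 0.1 had been added. The 11183 genes that reached an FPKM of 1 in any library were tested, and a call needed a ratio of 2-fold or more and an FPKM of 1 or more in at least 1 of its 2 libraries. With 1 library per condition there was no test. The members and lists were chosen with earlier results of these data known. The pathway genes came from 6 lists (160 of 166 found, 1 of them and 2 macrophage markers by Entrez Gene ID under an older symbol). From each list up to 4 genes could be named: those called the same way with both ligands over both controls, otherwise those with the largest mean ratio, all with FPKM of at least 5 in a library; others are marked or stand as the members of a count.

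Depth (9898000 to 10544000 reads) was estimated over 13488 genes of single-transcript entry whose length GENCODE M21 gives (nothing else was taken from it), and since many low values were not whole, estimated reads are approximate. Spred1 has no such length. Intervals are exact (Clopper-Pearson, 95%) on the reads of 2 libraries, rounded to whole numbers. FPKM carry the authors' scaling to each library, so a few abundant genes can move all others. The calls were also run on simulated reads, which held counting error only and no variation between cultures. All genes changed in that simulation had a higher level in water than Dusp2 and Dusp5, so calls at such low levels were not covered. Promoter windows came from RefSeq (GRCm38.p6). Settings varied were the pseudocount (1 and 0.01), the FPKM minimum (none and 5), the scaling (upper quartile, median centring) and the threshold (1.5-fold and 3-fold). Python 3.11.15, pandas 2.3.3, numpy 2.4.6, scipy 1.17.1 and matplotlib 3.10.9 were used.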

Additional observations from a re-analysis of the deposited data

How the results depend on the processing

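Over 8 alternative settings, 342 of 360 values of members kept their side of the 2-fold threshold, 10 calls were lost, 8 were gained and 0 calls changed direction. Most changes come from the settings' own construction. With a minimum FPKM of 5, Dusp2, Dusp5 and Spry2 were no longer tested, which left 6 members. Of these, 1 was called with ManGn over mock (Phlda1), 1 with fOS over mock (Dusp6, lower) and 1 with fOS over water (Dusp4). The shares of all genes called in either direction were 4.70%, 6.36% and 25.9%. The median log2 ratio of the members then turned to -0.14 for ManGn over mock and -0.11 for fOS over mock, and the fOS over mock median was -0.0091 at the same upper quartile. At 1.5-fold, 5 members were called with fOS over water (4 higher, 1 lower) and 4 with mock over water (3 higher, 1 lower), beside 51.5% and 36.0% of all genes, so these shares of the 9 members are near the background. At 3-fold Dusp4 and Dusp6 were lost. Dusp5 and Phlda1 kept their calls at both pseudocounts and both scalings. Low counts limit Spry1, Dusp2, Spry2 and the control levels of Dusp5, and no value here measures variation between cultures. No paired analysis was possible because each condition has 1 library.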
